A study of Mus musculus with 8 samples.

Results

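The genes described here are the members of the cytochrome P450 families Cyp2, Cyp3 and Cyp4 that were detected in mouse liver. They were chosen by symbol and by expression level, as the protein-coding genes of these families, leaving out Cyp2e1 and Cyp3a11, that reached at least 1 CPM (counts per 1000000 counts) in at least 2 of 8 RNA-seq libraries. This left 46 genes (29 of Cyp2, 3 of Cyp3 and 14 of Cyp4) of the 69 genes of these families among 23006 genes in the table, and all 46 entered the tests. The level minimum used the libraries themselves, so being expressed is not a finding. Livers of wild-type mice were taken from 4 groups of 2 libraries each. Control mice received PBS alone. Mice of the SLIT2 group were given the secreted ROBO ligand SLIT2 at 2 µg per mouse by intraperitoneal injection over 3 days, and no acetaminophen. Mice of the APAP group received PBS and acetaminophen (APAP) at 400 mg/kg. Mice of the SLIT2+APAP group received both. Tissue was collected 24 h after APAP. Strain, age and sex are not stated in the labels. Whether the 2 libraries of a group stem from different mice is not stated, so p-values reflect only the spread between libraries, which may be technical.

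Cytochromes P450 of these families are membrane-bound haem proteins of the endoplasmic reticulum that insert an oxygen atom into fat-soluble molecules, using electrons passed on by cytochrome P450 reductase. In liver, Cyp2a, Cyp2b, Cyp2c, Cyp2d and Cyp3a enzymes are known for oxidising drugs, toxins, steroids and bile acids. Cyp2c and Cyp2j enzymes also convert arachidonic acid to epoxides, and Cyp4a and Cyp4f enzymes hydroxylate the end of fatty acid chains and of eicosanoids. Acetaminophen becomes toxic to hepatocytes when P450 enzymes turn it into a reactive quinone imine. Many of these genes lie in clusters of recent duplicates, and the sequences of neighbours can be almost the same.

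How alike these genes are limits what a count can be assigned to, and it is shown first for the pairs whose values matter most below. Over the coding sequence of the GENCODE M21 transcripts, 13 pairs among the 46 genes were at least 95% identical, involving 17 genes. Cyp4a12a and Cyp4a12b were 98.5% identical. Cyp2a4 and Cyp2a5 were 98.4% identical, with 23 mismatches over 1482 bases. Cyp2c67 and Cyp2c69 reached 97.7%, Cyp3a25 and Cyp3a59 97.5%, Cyp4a10 and Cyp4a32 97.2%, Cyp2c67 and Cyp2c68 97.1%, and Cyp2a12 and Cyp2a22 97.0%. Of all stretches of 100 bases in the transcript, 44.1% of those in Cyp2c40 occurred unchanged in another gene, 36.3% in Cyp2c69, 36.2% in Cyp4a12b, 35.8% in Cyp4a12a, 14.4% in Cyp2a5 and 11.2% in Cyp2a4. How the authors counted reads that match several genes is not given in the sources used here, so counts of these genes are uncertain with respect to their near copies. Cyp2c29, Cyp2c38, Cyp2c70, Cyp2f2, Cyp2j5, Cyp2j9, Cyp4a14 and Cyp4x1 are among the genes with no such shared stretch.

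The likeness extends into the promoters. RefSeq promoter sequences (GRCm38.p6, 250 bases before to 50 bases after the gene start) were matched for 35 of the 46 genes, and the pairs Cyp2a4 with Cyp2a5 and Cyp2c40 with Cyp2c69 are printed because their levels are compared below. The printed windows are chr7:26306942-26307241 on the plus strand for Cyp2a4, chr7:26835089-26835388 on the plus strand for Cyp2a5, chr19:39812765-39813064 on the minus strand for Cyp2c40 and chr19:39886720-39887019 on the minus strand for Cyp2c69. Each is given 5′ to 3′, and capitals mark the bases that differ from the partner within the aligned stretch.
Cyp2a4: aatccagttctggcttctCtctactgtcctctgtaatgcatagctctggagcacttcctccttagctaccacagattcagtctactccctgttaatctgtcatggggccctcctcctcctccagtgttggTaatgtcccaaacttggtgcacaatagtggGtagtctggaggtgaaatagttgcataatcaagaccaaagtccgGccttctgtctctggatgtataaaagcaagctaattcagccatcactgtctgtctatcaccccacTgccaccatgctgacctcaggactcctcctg
Cyp2a5: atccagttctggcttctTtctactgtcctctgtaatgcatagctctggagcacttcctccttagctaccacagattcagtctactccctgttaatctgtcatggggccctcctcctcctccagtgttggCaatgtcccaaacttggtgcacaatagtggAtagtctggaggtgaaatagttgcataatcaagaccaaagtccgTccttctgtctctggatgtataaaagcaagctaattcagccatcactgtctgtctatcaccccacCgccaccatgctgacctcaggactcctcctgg
Cyp2c40: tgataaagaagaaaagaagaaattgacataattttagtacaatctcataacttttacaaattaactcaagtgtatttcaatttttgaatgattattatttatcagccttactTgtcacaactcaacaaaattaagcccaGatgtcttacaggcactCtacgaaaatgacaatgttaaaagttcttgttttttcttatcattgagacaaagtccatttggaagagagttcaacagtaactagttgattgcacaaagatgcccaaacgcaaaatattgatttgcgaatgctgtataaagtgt
Cyp2c69: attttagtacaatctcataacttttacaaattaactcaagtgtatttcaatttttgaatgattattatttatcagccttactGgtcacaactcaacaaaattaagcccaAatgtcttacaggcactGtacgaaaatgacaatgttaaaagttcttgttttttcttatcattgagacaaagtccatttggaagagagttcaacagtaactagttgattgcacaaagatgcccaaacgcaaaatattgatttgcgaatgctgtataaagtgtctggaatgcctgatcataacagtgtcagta
Cyp2a4 and Cyp2a5 differed at 5 of 299 aligned bases (98.3% identity), and Cyp2c40 and Cyp2c69 at 3 of 270 (98.9%). The windows of Cyp3a25 and Cyp3a59 were 96.3% identical, those of Cyp2c67 and Cyp2c69 92.8%, and those of Cyp2a12 and Cyp2a22 89.4%.

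Short motifs were searched on both strands of the 35 windows and of all 27025 promoters of the same length. The TATA box TATAAA stood in 16 of 35 windows (45.7%) and in 14.2% of all promoters. The nuclear receptor motif AGGTCA stood in 10 (28.6%, against 16.0% of all), and the C/EBP motif TTGCNNAA in 11 (31.4%, against 10.8%). The core of the antioxidant response element, TGACNNNGC, stood in 1 window, that of Cyp2j6, and in 12.5% of all promoters. A match was counted anywhere in the window, also after the gene start. All 4 printed windows held TATAAA and TTGCNNAA, and those of Cyp2a4 and Cyp2a5 also held AGGTCA. In Cyp2c40 and Cyp2c69 TATAAA lay in the 50 bases after the gene start, so its place is not that of a TATA box. AGGTCA in Cyp2a4 and Cyp2a5, read as TGACCT, also lay in the 50 bases after the gene start. The D box TTATGTAA stood in 0 windows (1.0% of all promoters). The reverse of AGGTCA shares the letters TGAC with TGACNNNGC, promoters of duplicated genes are not independent, and a match is a description of the letters only.

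Libraries held 60.8 to 100.5 M counts (1 M is 1000000 counts). The SLIT2 libraries stood apart. In them 60.2 and 69.0% of counts fell on the 13 mitochondrially encoded genes, against 13.4 to 17.3% in control and APAP and 25.1 and 30.3% in SLIT2+APAP. Genes not annotated as protein-coding took 2.65 and 3.34% of the counts outside mitochondrial genes in SLIT2 and 0.66 to 1.22% elsewhere. Albumin, transthyretin and 9 other defining hepatocyte transcripts were present in every library, with a summed 67623 to 127115 CPM outside the SLIT2 group and 16649 and 9361 CPM within it. Skeletal muscle transcripts summed to 894 CPM in control 1, 99.4 CPM in control 2 and at most 2.32 CPM in the others. Transcripts of 4 Y-linked genes were found in every library, summing to 105 to 175 CPM. The parts of these differences in the results below were not tested unless stated. In bulk tissue, fewer cells of a type and less RNA per cell cannot be told apart.

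Levels are given as CPM on library sizes scaled by TMM, a method that sets the typical gene to no change, with both libraries of a group in numerical order (control 1 and 2, SLIT2 1 and 2, APAP 3 and 4, SLIT2+APAP 1 and 2). To compare genes with each other, CPM was divided by exon length in kilobases. On this scale of CPM per kb, the highest control means were those of Cyp2d26 (361), Cyp4a10 (345), Cyp2f2 (343), Cyp2d9 (336) and Cyp3a25 (331). Cyp4a10 stood at 195 and 495 CPM per kb in the 2 control libraries, a range that holds the values of the other 4, and Cyp3a25 at 356 and 305 CPM per kb overlapped with each of them. Cyp2d26 (368 and 354 CPM per kb), Cyp2f2 (344 and 341) and Cyp2d9 (333 and 339) did not overlap with each other. Cyp2c67, Cyp4a14, Cyp2j5, Cyp2c68, Cyp2c50 and Cyp2c54 followed, with means from 202 down to 141 CPM per kb. At the other end, Cyp2a4 (0.213), Cyp2j8 (0.146), Cyp4x1 (0.145) and Cyp2b9 (0.0628) were the lowest control means. The order changed with the group. Cyp3a25 was first in SLIT2 (316 CPM per kb), Cyp2d26 in APAP (539) and Cyp2a5 in SLIT2+APAP (392), where Cyp2a5 had been the 12th gene in control (138).

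**Figure D1:**
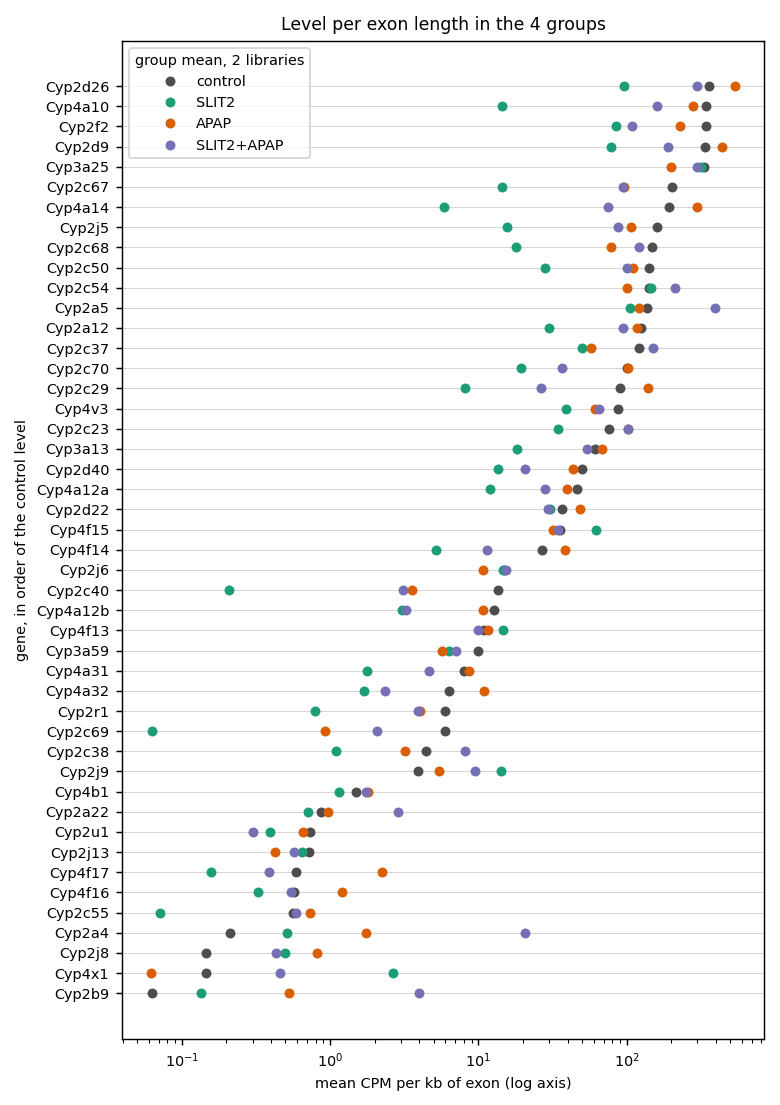
Mean CPM per kb of exon (log axis) of each of the 46 genes in the 4 groups, ordered by the control mean, with 1 point per group mean of 2 libraries. The control levels run from 0.0628 (Cyp2b9) to 361 (Cyp2d26) CPM per kb, and the SLIT2 point of Cyp2c69 lies at 0.0634, far to the left of its control point at 5.92.

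The genes closest to the level minimum were Cyp2j8, with 1.41 CPM in its library of second rank on unscaled totals, Cyp2c55 with 1.68 CPM and Cyp4f16 with 3.00 CPM. Just outside were Cyp2g1 with 0.865 CPM, Cyp2b10 with 0.806 CPM and Cyp2c39 with 0.716 CPM. Cyp2b10, the gene best known for induction through the receptor CAR, exceeded the minimum in APAP 3 alone, at 5.78 CPM. No gene entered through 1 group only.

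Summed over the 46 genes, the 2 libraries of a group stood at 7831 and 9485 CPM in control, 3308 and 2687 CPM in SLIT2, 7032 and 9465 CPM in APAP and 6606 and 6309 CPM in SLIT2+APAP. The SLIT2 libraries were the lowest on this scale. As a share of the counts outside mitochondrial genes the same sums were 0.820 and 1.084% in control, 0.892 and 0.787% in SLIT2, 0.775 and 1.135% in APAP and 0.956 and 1.057% in SLIT2+APAP. On that scale SLIT2 overlapped with control and with APAP and lay below SLIT2+APAP. Cyp2c was the largest subfamily in control (summed CPM of 12 genes 2180 ± 208, SD, n = 2), followed by Cyp2d (4 genes, 1772 ± 1.26) and Cyp4a (6 genes, 1402 ± 807).

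**Figure D2:**
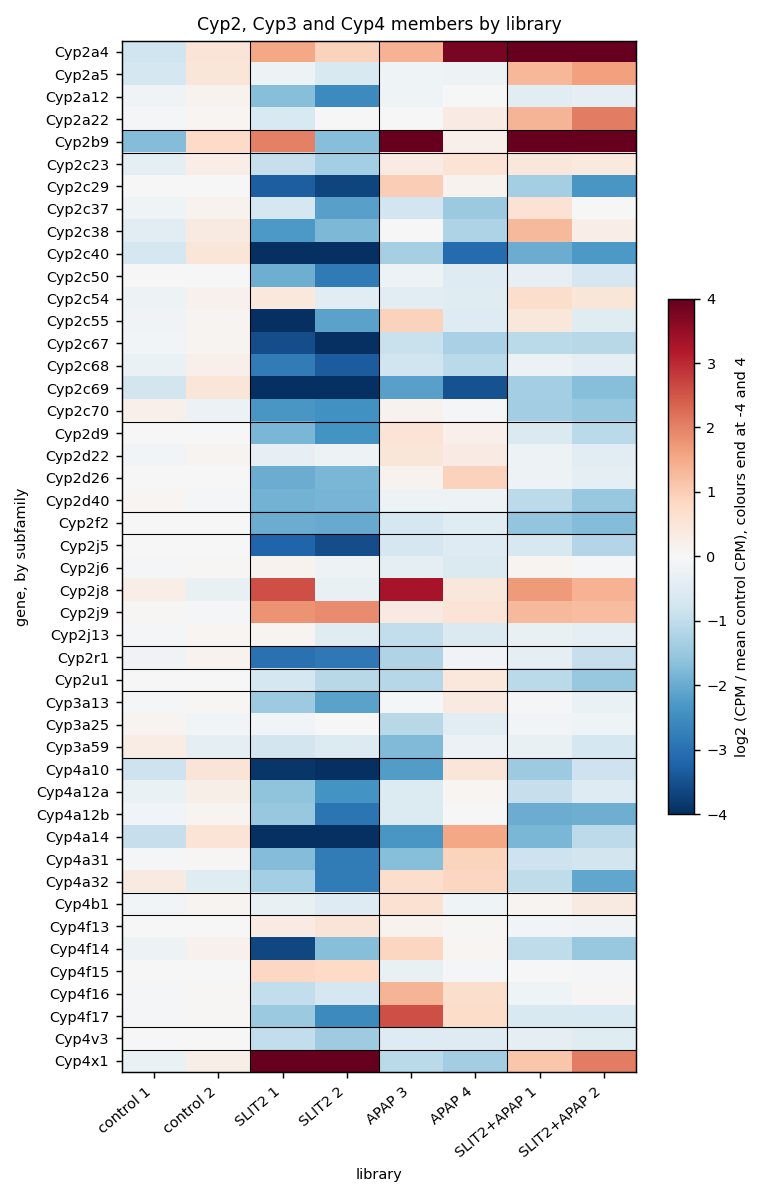
Colour map of log2 of CPM over the control mean, with the 46 genes in rows by subfamily and the 8 libraries in columns; the colour scale ends at -4 and 4. The Cyp4a rows and the Cyp2c rows other than Cyp2c54 are blue in both SLIT2 libraries, Cyp2a4 and Cyp2b9 are red in both SLIT2+APAP libraries, and Cyp4a10 and Cyp4a14 differ in colour between APAP 3 and APAP 4.

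The spread between libraries of a group was not the same in all groups. Outside the SLIT2 libraries, the widest gaps were those of Cyp4a14 and Cyp2b9 between the APAP libraries. Cyp4a14, a hydroxylase of medium-chain fatty acids induced through the fatty acid receptor PPARA, stood at 267 and 738 CPM in control and 99.4 and 1454 CPM in APAP, a 14.62-fold gap between APAP 3 and APAP 4. Cyp4a10, its neighbour with the same known function, stood at 411 and 1044 CPM in control and 154 and 1020 CPM in APAP. APAP 3 was the low library for both, and for each gene the control and APAP groups overlapped. Among genes of low level, Cyp2b9 differed 13.66-fold and Cyp2j8 7.25-fold between the APAP libraries, with APAP 3 the higher, and Cyp2a4 6.83-fold between the SLIT2+APAP libraries. Over 2-fold gaps between the libraries of a group were seen for 7 of 46 genes in control, where 9.10% of all genes had them. They were seen for 13 of 46 in SLIT2 (12.9% of all genes), 14 of 46 in APAP (32.0%) and 3 of 46 in SLIT2+APAP (8.21%). The median gap of the 46 genes was 1.17-fold in control, 1.46-fold in SLIT2, 1.40-fold in APAP and 1.23-fold in SLIT2+APAP. For all genes it was 1.16-, 1.28-, 1.55- and 1.17-fold. APAP 3 and APAP 4 also differed in Hmox1, the stress-induced haem oxygenase, at 557 and 11 CPM.

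The first comparison, APAP against control, concerns the toxic dose alone. None of the 46 genes passed the edgeR quasi-likelihood test over all 16876 genes (adjusted p under 0.05), where 0.332% of all genes rose and 0.456% fell. At an unadjusted p under 0.05 there were 15 of 46, where 24.6% of all genes were, and DESeq2 called 6 of 46, where it called 7.98% of all genes. The median log2 fold change of the 46 genes was -0.15, against 0.05 for all genes, with single values from -2.70 to 3.03.

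The smallest p-values of this comparison belonged to 3 neighbouring Cyp2c genes. Cyp2c69 stood at 6.13 and 14.1 CPM in control and 2.23 and 0.903 CPM in APAP (log2 fold change -2.70 ± 0.56 SE, edgeR adjusted p = 0.0652). Cyp2c67 stood at 321 and 379 CPM in control and 187 and 143 CPM in APAP (adjusted p = 0.0822), and Cyp2c68 at 215 and 298 and 149 and 122 CPM (adjusted p = 0.104). The 3 genes were chosen by their p-values, so it adds no support that both APAP libraries lay below both control libraries for each. Cyp4f17 lay the other way, at 1.82 and 1.96 CPM in control and 11.3 and 3.12 CPM in APAP. Its high value came from APAP 3. DESeq2 called these 4 and also Cyp2c40 and Cyp2f2, with Cyp4f17 higher and 5 lower.

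Leaving out APAP 4 raised the edgeR count from 0 to 10 of 46 (21.7%; 4 higher and 6 lower), and that fit called 28.7% of all genes. It had Cyp3a59, Cyp4a31 and Cyp2r1 among the lower ones and Cyp4f17, Cyp4f16, Cyp2b9 and Cyp2j8 the higher ones. Cyp4a31 changed sign there, from 0.11 to -1.72. Leaving out APAP 3 gave 1 call, Cyp2c69, where 3.10% of all genes were called. The remaining APAP library is assumed in such fits to vary like the other groups. The genes left out by name had 2862 and 3002 CPM in control and 4400 and 4138 CPM in APAP for Cyp2e1, the best-known activator of acetaminophen, and 2358 and 2318 and 1234 and 593 CPM for Cyp3a11, the main drug-oxidising Cyp3a enzyme.

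SLIT2 against control concerns SLIT2 in the absence of APAP. Of the 46 genes, 27 fell (58.7%) and 3 rose (6.52%), where 27.6% of all genes fell and 27.3% rose, and the median log2 fold change was -1.88, against 0.00 over all genes. Fallen genes came from Cyp2a, Cyp2c, Cyp2d, Cyp2f, Cyp2j, Cyp2r, Cyp3a, Cyp4a, Cyp4f and Cyp4v. The direction of a part of them depends on the scaling, since the SLIT2 libraries hold so many mitochondrial counts. When libraries were scaled by their totals outside mitochondrial genes, an alternative chosen after seeing the data, the median of all genes moved to 1.35, the median of the 46 genes to -0.53, and 12 rose and 13 fell. These calls were 54.3% of the 46 genes, where 64.7% of all genes were called. All 46 genes moved up by a nearly constant step under that scaling, as the plot of SLIT2 fold changes under the 2 scalings shows. The 11 hepatocyte transcripts fell as well (11 of 11, median log2 fold change -2.60).

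Among the drug- and arachidonic acid-oxidising Cyp2c genes, 10 of 12 fell, and under scaling by totals outside mitochondrial genes 7 fell and 1, Cyp2c54, rose. Cyp2c69 went from 6.13 and 14.1 CPM to 0.162 and 0.0543 CPM (log2 fold change -6.47 ± 0.75, edgeR adjusted p = 0.000309). Its near copy Cyp2c40 went from 16.9 and 38.6 to 0.737 and 0.109 CPM (-5.98 ± 0.92, adjusted p = 0.00107). For both, the SLIT2 libraries lay far below the lower control library. Cyp2c67 fell from 321 and 379 to 30.2 and 19.5 CPM (-3.82 ± 0.30), Cyp2c68 from 215 and 298 to 36.6 and 25.6 CPM (-3.05 ± 0.29) and Cyp2c29, a phenobarbital-inducible member, from 281 and 270 to 27.99 and 21.5 CPM (-3.48 ± 0.43). Cyp2c70, the enzyme that makes muricholic bile acids in mice, fell from 230 and 167 to 39.4 and 36.9 CPM (-2.38 ± 0.24). All 6 were among the 7 that also fell under the other scaling. Cyp2c54 stood apart from them, at 219 and 284 CPM in control and 338 and 187 CPM in SLIT2 (log2 fold change 0.06 ± 0.31, 95% interval -0.65 to 0.78), although its coding sequence is 95.2% identical to that of Cyp2c50, which fell from 406 and 416 to 107 and 57.8 CPM (-2.32 ± 0.33). Cyp2c37, the remaining gene of that trio, stood at 199 and 245 and 135 and 48.7 CPM and just missed the threshold (adjusted p = 0.0503).

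All 6 Cyp4a genes, the PPARA-linked fatty acid hydroxylases, fell, and under scaling by totals outside mitochondrial genes Cyp4a10 and Cyp4a14 alone did. Cyp4a14 went from 267 and 738 to 25.6 and 4.71 CPM (-5.05 ± 1.34, edgeR adjusted p = 0.0136) and Cyp4a10 from 411 and 1044 to 49.4 and 11.6 CPM (-4.58 ± 1.06). Both SLIT2 libraries lay below both control libraries for each, with wide errors. The other 4 Cyp4a genes had log2 fold changes from -2.17 to -1.90. Cyp4a12a, the main arachidonic acid omega-hydroxylase of male mice, went from 93.4 and 131 to 36.4 and 21.5 CPM, and its near copy Cyp4a12b from 28.2 and 32.4 to 10.6 and 3.98 CPM.

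Further falls were seen for Cyp2j5, an arachidonic acid epoxygenase, from 371 and 378 to 41.0 and 31.7 CPM (-3.37 ± 0.28, edgeR adjusted p = 0.000109), and for Cyp2f2, the naphthalene-activating enzyme of periportal hepatocytes, from 697 and 691 to 174 and 171 CPM (-2.01 ± 0.22). Cyp2r1, a hydroxylase of vitamin D, fell from 11.5 and 13.9 to 1.59 and 1.74 CPM (-2.93 ± 0.40). Cyp2d9, a male-biased testosterone hydroxylase, fell from 884 and 900 to 250 and 169 CPM, Cyp2d26 from 659 and 634 to 162 and 182 CPM and Cyp2d40 from 94.9 and 86.2 to 24.4 and 24.9 CPM. Cyp2d22 did not pass, at 133 and 152 and 114 and 124 CPM. Cyp3a25, the most abundant Cyp3a member, did not pass either, at 742 and 636 CPM in control and 635 and 682 CPM in SLIT2 (log2 fold change -0.07 ± 0.28, 95% interval -0.71 to 0.58), and Cyp3a59 stood at 24.6 and 15.3 and 11.9 and 13.6 CPM. Cyp2a5, the coumarin hydroxylase, overlapped between the groups (175 and 398 and 247 and 190 CPM), while Cyp2a12 fell from 389 and 475 to 134 and 73.4 CPM. Of the genes of this paragraph, Cyp2d22 (1.10) and Cyp3a25 (1.30) rose under scaling by totals outside mitochondrial genes, and Cyp2d26, Cyp2d40 and Cyp2a12 no longer passed.

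Of the 3 genes that rose with SLIT2, Cyp4x1 and Cyp2j9 were of low control level, and all 3 also rose under scaling by totals outside mitochondrial genes. Cyp4x1, an orphan P450 best known from brain, rose from 0.501 and 0.715 to 12.1 and 10.2 CPM (4.19 ± 0.41, edgeR adjusted p = 0.000171). Cyp2j9, an arachidonic acid-metabolising enzyme also best known from brain, rose from 13.6 and 12.7 to 45.8 and 48.7 CPM (1.85 ± 0.19), and Cyp4f15, a hydroxylase of the eicosanoid-inactivating Cyp4f group, from 81.6 and 80.7 to 144 and 141 CPM (0.81 ± 0.19). The 3 genes were chosen by their calls, so it adds no support that both SLIT2 libraries lay above both control libraries for each. Of the 30 calls, 21 passed whichever of the 8 libraries was left out, and Cyp4x1 and Cyp2j9 were among them. Without 1 control, SLIT2 or SLIT2+APAP library the count was lower, and without 1 APAP library it was higher. The share of all genes called moved the same way.

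**Figure D3:**
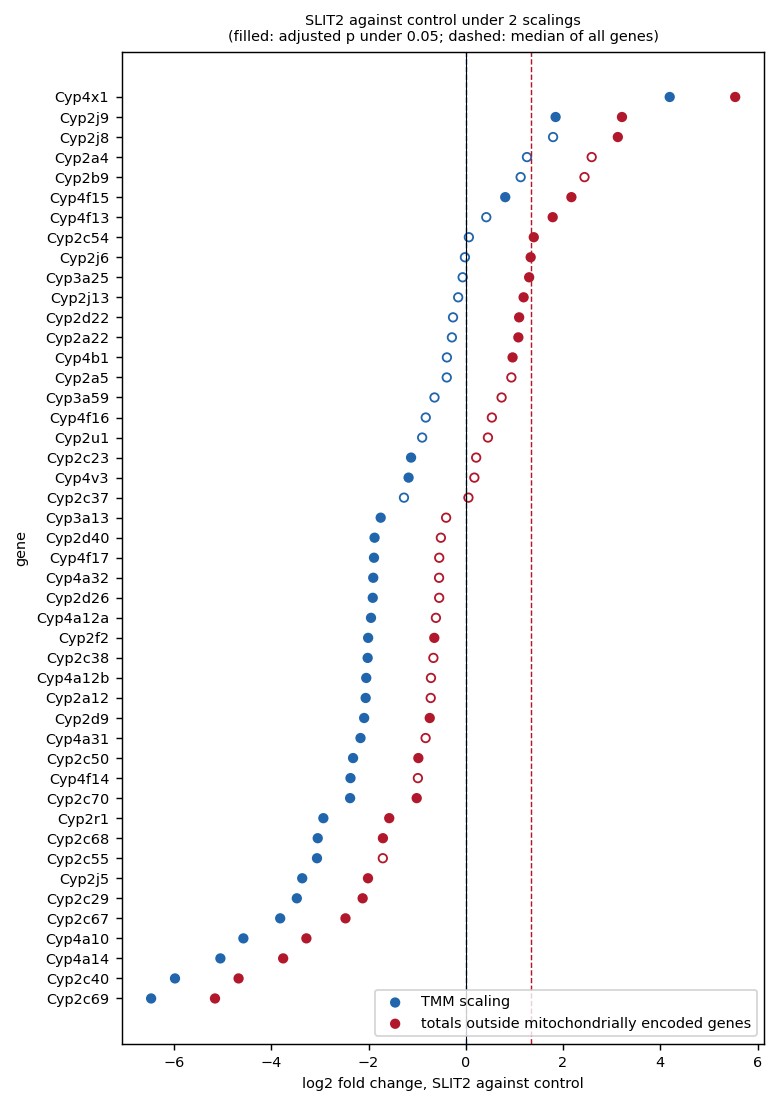
Log2 fold change of each of the 46 genes in SLIT2 against control under TMM scaling (blue) and under scaling by totals outside mitochondrially encoded genes (red), filled where the adjusted p was under 0.05, with dashed lines at the median of all genes (0.00 and 1.35). The red points lie to the right of the blue ones by a nearly constant step, so genes such as Cyp2j6 (-0.02 and 1.33) change sign while Cyp2c69 stays far below 0.

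SLIT2+APAP against APAP asks what SLIT2 changed in mice that received the toxic dose. Of the 46 genes, 4 rose (8.70%) and 8 fell (17.4%), where 6.29% of all genes rose and 7.64% fell, and the median log2 fold change was -0.21, against -0.06 for all genes. The calls were sensitive to single libraries. In the fits given here with fewer calls among the 46 genes, a smaller share of all genes was called too (13.9% in the main fit). None of the 12 passed in all fits with 1 library left out. The count was 4 without control 1 or without control 2, 2 without SLIT2+APAP 1, 0 without SLIT2+APAP 2 and 14 without any 1 of the SLIT2 or APAP libraries (8.54% of all genes without SLIT2 2 to 34.0% without APAP 4), and it was 0 when only the 4 libraries compared were fitted. Scaling by totals outside mitochondrial genes gave 10 higher and 4 lower (17.7% of all genes were called), with the median of all genes at 0.37. Scaling by library totals gave 4 and 4 (11.1% of all genes). Under both, Cyp2f2, Cyp2d40, Cyp2d9 and Cyp4a12b no longer passed.

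Of the genes that rose, Cyp2a5 was the most abundant. It stood at 255 and 247 CPM in APAP and 724 and 900 CPM in SLIT2+APAP (log2 fold change 1.70 ± 0.39, edgeR adjusted p = 0.0287), above all other libraries of the study. Cyp2a22, on the same chromosome 7 cluster, rose from 2.94 and 3.76 to 7.63 and 12.2 CPM (1.57 ± 0.34, adjusted p = 0.0244), while Cyp2a12, its near copy at a far higher level, stood at 386 and 427 and 322 and 328 CPM and did not pass. Cyp4x1 rose from 0.287 and 0.233 to 1.31 and 2.52 CPM (2.89 ± 0.43) and Cyp2j9 from 16.9 and 19.4 to 32.6 and 30.9 CPM (0.81 ± 0.19). Cyp2a4, the female-biased steroid hydroxylase next to Cyp2a5 in sequence, had 0.973 and 5.11 CPM in APAP and 9.10 and 62.1 CPM in SLIT2+APAP and just missed the threshold (adjusted p = 0.0537).

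The largest fall among the abundant genes was that of Cyp2c29, from 546 and 302 to 108 and 54.4 CPM (-2.38 ± 0.41, edgeR adjusted p = 0.0133). Both SLIT2+APAP libraries lay below all control and APAP libraries for this gene. Cyp2c70 fell from 217 and 186 to 75.9 and 70.0 CPM (-1.47 ± 0.23), Cyp2f2 from 431 and 501 to 231 and 209 CPM (-1.08 ± 0.22) and Cyp2d40 from 78.1 and 78.0 to 43.4 and 31.5 CPM (-1.06 ± 0.22). Cyp2d9, Cyp4a12b, Cyp4a32 and Cyp4f17 made up the rest. Cyp2d9 stood at 1307 and 1037 and 596 and 422 CPM and Cyp4a12b at 20.95 and 30.3 and 7.61 and 7.84 CPM. Cyp4a32 went from 15.8 and 17.7 to 4.88 and 2.31 CPM and Cyp4f17, high in APAP 3, from 11.3 and 3.12 to 1.23 and 1.24 CPM. Cyp4a10, at 154 and 1020 CPM in APAP and 263 and 414 CPM in SLIT2+APAP, lay within the gap between the APAP libraries, and the same held for Cyp4a14, at 142 and 246 CPM in SLIT2+APAP. Of the genes left out by name, Cyp2e1 fell to 1991 and 1093 CPM (log2 fold change -1.47 ± 0.38, adjusted p = 0.0393) and Cyp3a11 stood at 680 and 527 CPM.

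SLIT2+APAP against control uses the libraries of both outer groups. It shares controls with the comparisons above, so its values are given side by side with them and not as separate support. Of the 46 genes, 3 rose and 3 fell (6.52% each), where 0.717% of all genes rose and 1.45% fell. Cyp2a4 rose from 0.215 and 0.526 to 9.10 and 62.1 CPM (6.57 ± 1.20, edgeR adjusted p = 0.0406), with a 6.83-fold gap between the SLIT2+APAP libraries. Cyp2a22 rose from 2.84 and 3.10 to 7.63 and 12.2 CPM (1.74 ± 0.34) and Cyp2j9 from 13.6 and 12.7 to 32.6 and 30.9 CPM (1.27 ± 0.19). Cyp2f2 fell from 697 and 691 to 231 and 209 CPM (-1.66 ± 0.22), Cyp2c70 from 230 and 167 to 75.9 and 70.0 CPM (-1.44 ± 0.23) and Cyp2d40 from 94.9 and 86.2 to 43.4 and 31.5 CPM (-1.27 ± 0.22). These 6 genes were chosen by their calls, so it adds no support that their groups did not overlap.

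Cyp2a5, at 724 and 900 CPM against 175 and 398 CPM in control, did not pass (95% interval of the log2 fold change 0.62 to 2.39, edgeR adjusted p = 0.0809). Cyp2b9, a female-biased relative of Cyp2b10, stood at 6.07 and 8.77 CPM in SLIT2+APAP against 0.0358 and 0.200 CPM in control, with a log2 fold change of 5.92 ± 1.30 that did not pass either (adjusted p = 0.0598). All 6 calls were lost without any 1 of the control, SLIT2 or SLIT2+APAP libraries and without both SLIT2 libraries (0 calls each), while 15 genes passed without APAP 3 (14.3% of all genes) or without APAP 4 (13.6% of all genes). Each fit that lost the 6 calls also called a smaller share of all genes than the main fit did. DESeq2 called 14 (6.32% of all genes) and a fit of only the 4 libraries compared called 18 (27.4% of all genes). Scaling by totals outside mitochondrial genes gave 6 higher and 3 lower (8.95% of all genes were called), with the median of all genes at 0.55. Scaling by library totals gave 4 higher and 1 lower (2.31% of all genes).

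**Figure D4:**
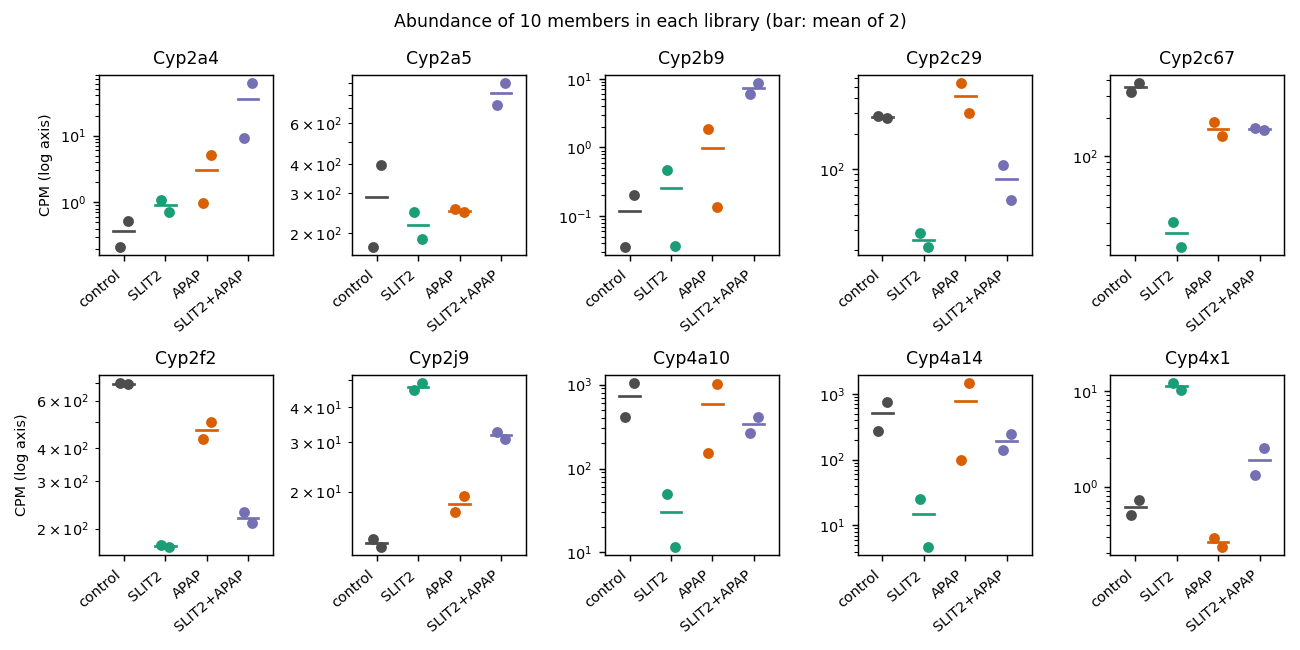
CPM (log axis, a scale of its own in each panel) of 10 genes in each library, with points for single libraries by group and a bar at the mean of 2. Cyp2a5 is highest in SLIT2+APAP (724 and 900 CPM), Cyp2c67 and Cyp2f2 are lowest in SLIT2, and the 2 APAP points of Cyp4a10 and Cyp4a14 lie far apart.

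The interaction of SLIT2 and APAP, the effect of SLIT2 in mice with APAP minus its effect in mice without, tests whether the effect of SLIT2 differed between the 2 settings. It was positive for 14 of the 46 genes (30.4%) and negative for 1, where 15.5% of all genes were called as positive and 13.3% as negative, and the median was 1.07, against -0.09 for all genes. Of the 12 Cyp2c genes 7 passed. Cyp2c69 had the largest value (log2 7.64 ± 0.93, edgeR adjusted p = 0.00359), with 3.94 and 3.08 CPM in SLIT2+APAP against 2.23 and 0.903 CPM in APAP, a log2 fold change of 1.17 there and -6.47 without APAP. Cyp2c67 (log2 3.80 ± 0.40) stood at 187 and 143 CPM in APAP and 166 and 161 CPM in SLIT2+APAP. Its log2 fold change was -0.01 there and -3.82 without APAP. Cyp2c68 (log2 3.66 ± 0.39) stood at 149 and 122 CPM in APAP and 219 and 197 CPM in SLIT2+APAP. Cyp2j5, at 236 and 265 CPM in APAP and 240 and 167 CPM in SLIT2+APAP, had 3.07 ± 0.37. For these genes the low level seen in SLIT2 alone was not seen in SLIT2+APAP. Cyp2a5 (log2 2.09 ± 0.54) and Cyp2a22 (log2 1.85 ± 0.48) passed through their rise with SLIT2 in APAP-treated mice. Cyp2j9 was the negative one (log2 -1.04 ± 0.26), since it rose in both settings and more so without APAP.

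Only Cyp2c67, Cyp2c68, Cyp2c69 and Cyp2j5 passed whichever library was left out. The count was 8 without control 1, 7 without control 2, 14 without SLIT2 1, 9 without SLIT2 2, 19 without APAP 3, 26 without APAP 4, 4 without SLIT2+APAP 1 and 9 without SLIT2+APAP 2, while the share of all genes called lay between 5.54% (without SLIT2+APAP 1) and 46.0% (without APAP 4). Under scaling by totals outside mitochondrial genes there were 9 positive and 5 negative calls (38.0% of all genes were called), with the median of all genes at -1.01. Cyp2a5, Cyp2a22 and Cyp2a12 were not among them. The SLIT2 libraries enter this term, and the part of their mitochondrial share in it was not tested beyond that scaling.

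**Figure D5:**
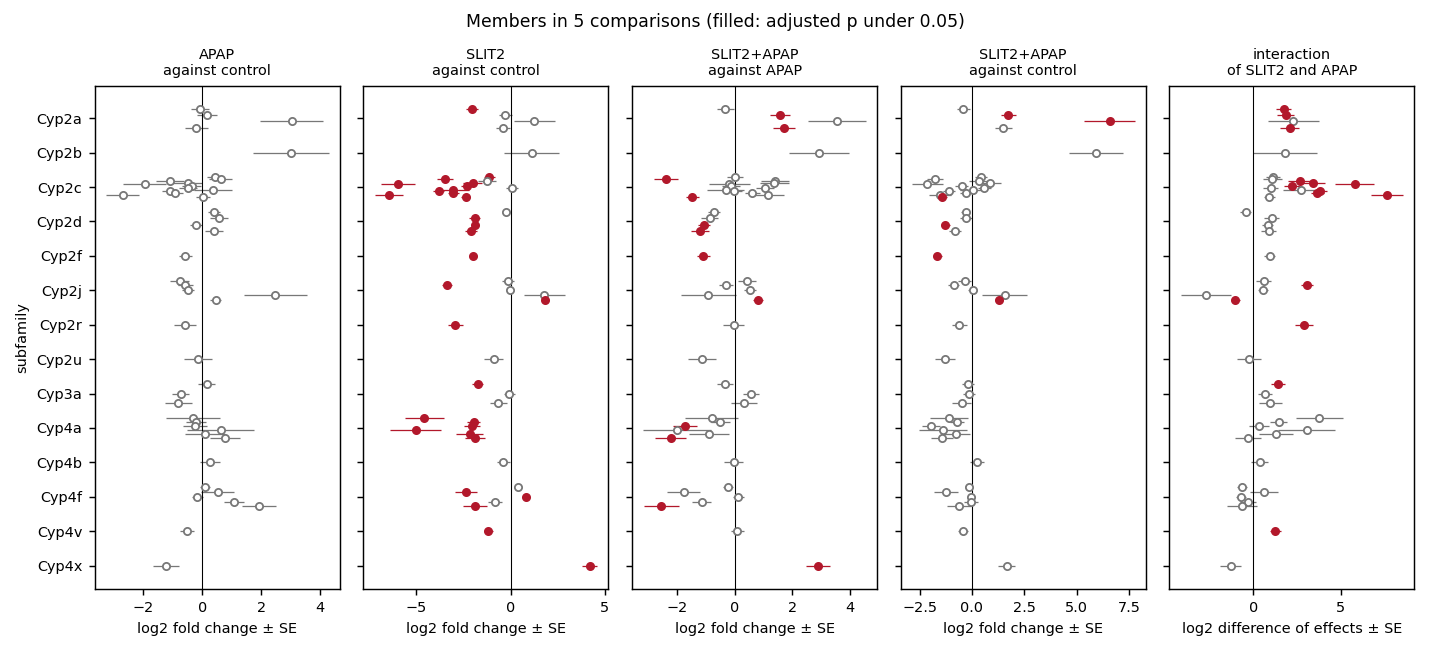
Log2 fold change ± SE of the 46 genes by subfamily in the 5 comparisons, filled where the edgeR adjusted p was under 0.05. No point is filled in APAP against control, 30 are filled in SLIT2 against control, 12 in SLIT2+APAP against APAP, 6 in SLIT2+APAP against control and 15 in the interaction.

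The proteins that serve these enzymes were read from lists chosen with earlier results known, and their counts stand beside the share of all genes called, 27.3% higher and 27.6% lower in SLIT2 against control and 6.29% higher and 7.64% lower in SLIT2+APAP against APAP. Of 6 redox partners, none passed in APAP against control, and 4 fell in SLIT2, namely Cyb5a, Cyb5b, Pgrmc1 and Pgrmc2. Cyb5a, the cytochrome that passes electrons to some P450s, went from 1176 and 1100 to 165 and 102 CPM (-3.09 ± 0.31, edgeR adjusted p = 0.00018). Por, the P450 reductase, stood at 143 and 177 CPM in control and 154 and 97.2 CPM in SLIT2, 587 and 256 CPM in APAP and 127 and 136 CPM in SLIT2+APAP, and fell in SLIT2+APAP against APAP (-1.68 ± 0.41, adjusted p = 0.0335). APAP 3 held its highest value. Of 12 genes of haem synthesis and breakdown, 7 fell in SLIT2 (27.6% of all genes fell), among them Urod, from 58.5 and 60.9 to 14.5 and 15.0 CPM, and 1, Hmox1, fell in SLIT2+APAP against APAP, to 2.97 and 2.36 CPM. The fall of Hmox1 starts from the 2 unequal APAP libraries given above.

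Of 25 transcription factors known to regulate P450 genes, 1 rose in APAP against control. This was Cux2, a female-biased repressor of male-biased P450 genes in mouse liver, from 0.310 and 0.515 to 4.76 and 3.62 CPM (3.33 ± 0.37, edgeR adjusted p = 0.0272). In SLIT2 against control 5 rose (Cux2, Nr1i2, Ppara, Stat5a and Tef) and 4 fell (Cebpa, Cebpb, Nr5a2 and Rxra), both no larger a share of the 25 than that of all genes (27.3% and 27.6%). Ppara, the fatty acid receptor, rose from 23.3 and 23.5 to 84.9 and 70.6 CPM, and Rxra, its partner, fell from 181 and 186 to 93.7 and 67.7 CPM. In SLIT2+APAP against APAP 2 rose (Nr1h4 and Nr3c1) and 3 fell (Cebpb, Cux2 and Rxra), and Cebpb went from 191 and 135 to 54.7 and 91.6 CPM (-1.15 ± 0.29). In SLIT2+APAP against control Cux2 alone passed, as higher. In the interaction Hlf was positive and Cux2, Ppara, Rxrb and Stat5a negative, where 15.5% of all genes were positive and 13.3% negative.

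Of 23 PPARA target genes that are not P450s, none passed in APAP against control, 14 fell in SLIT2 (27.6% of all genes fell), and 1 rose (Aldh3a2) and 3 fell (Cidec, Ehhadh and Plin2) in SLIT2+APAP against APAP. Ehhadh, a peroxisomal fatty acid oxidation enzyme, stood at 135 and 166 CPM in control, 11.7 and 9.80 CPM in SLIT2, 87.2 and 182 CPM in APAP and 38.0 and 34.5 CPM in SLIT2+APAP. It was low in APAP 3 relative to APAP 4, as Cyp4a10 and Cyp4a14 were. Ehhadh also fell in SLIT2+APAP against control, and 10 of the 23 targets were positive in the interaction (15.5% of all genes).

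Sex-biased P450 genes are among the 46. The 3 male-biased ones (Cyp2d9, Cyp4a12a and Cyp4a12b) all fell in SLIT2, where 58.7% of the 46 genes and 27.6% of all genes fell. Cyp4a12a and Cyp4a12b are near copies, so the 3 are not separate cases. Of the 3, Cyp2d9 alone also passed under scaling by totals outside mitochondrial genes. Cyp2d9 and Cyp4a12b fell in SLIT2+APAP against APAP, where 7.64% of all genes fell. Of 9 female-biased genes 5 had enough counts to be tested. Cyp2c40 and Cyp2c69, also near copies, fell in SLIT2. Cyp2a4 rose in SLIT2+APAP against control, where 0.717% of all genes rose. Cyp2b13, Cyp3a16, Cyp3a41a and Cyp3a41b stood at 0.143 CPM or less in every library. Of 19 tested P450 genes of other families, 4 rose (Tbxas1, Cyp20a1, Cyp21a1 and Cyp46a1) and 5 fell (Cyp1a2, Cyp7b1, Cyp8b1, Cyp39a1 and Cyp51) in SLIT2, where 27.3% of all genes rose and 27.6% fell. Cyp27a1 and Cyp39a1, enzymes of bile acid synthesis, fell in SLIT2+APAP against APAP. Cyp39a1 went from 23.1 and 25.2 to 7.48 and 5.70 CPM (-1.88 ± 0.23, edgeR adjusted p = 0.00619).

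The remaining genes of the 46 were of low level or did not pass in most comparisons. Cyp2j6 (35.7 to 59.1 CPM), Cyp4f13 (43.9 to 69.3 CPM), Cyp4b1 (2.37 to 5.18 CPM), Cyp2j13 (1.72 to 3.64 CPM), Cyp2u1 (1.34 to 5.19 CPM) and Cyp2j8 (0.179 to 2.18 CPM) passed in none of the 5 comparisons, and nor did Cyp4f16, Cyp2b9, Cyp2c54, Cyp2d22, Cyp3a25 and Cyp3a59. Cyp2c55, the lowest Cyp2c gene in control, fell in SLIT2 from 1.02 and 1.22 to 0.0295 and 0.253 CPM. Cyp2c23, an epoxygenase, fell from 128 and 197 to 86.4 and 62.8 CPM, Cyp2c38 from 9.26 and 16.3 to 2.61 and 3.71 CPM, Cyp3a13 from 176 and 186 to 66.3 and 41.1 CPM and Cyp4v3 from 339 and 329 to 170 and 126 CPM. Cyp2c23 (0.21) and Cyp4v3 (0.18) had the opposite sign under scaling by totals outside mitochondrial genes, and Cyp2c55, Cyp2c38, Cyp3a13 and Cyp4f14 no longer passed there. Cyp4f14, a hydroxylase that inactivates leukotrienes, fell from 56.0 and 74.1 to 5.16 and 20.0 CPM, with the SLIT2 libraries 3.88-fold apart. On GRCm38 the Cyp2a genes, Cyp2b9, Cyp2f2 and Cyp2r1 lie on chromosome 7, the Cyp2c genes on chromosome 19, the Cyp2d genes on chromosome 15, the Cyp3a genes on chromosome 5, the Cyp2j, Cyp4a, Cyp4b1 and Cyp4x1 genes on chromosome 4 and the Cyp4f genes on chromosome 17. Cyp2a5 (ENSMUSG00000005547) spans positions 26835305 to 26843548 of chromosome 7, Cyp2c69 (ENSMUSG00000092008) 39842814 to 39886799 of chromosome 19 and Cyp2c29 (ENSMUSG00000003053) 39269405 to 39330713 of the same chromosome.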

How the data were processed

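The deposited table holds whole-number counts per Ensembl gene in 1 column for each of 8 mouse liver libraries, not scaled by the authors as far as the values show. Per the submitters' processing notes, STAR 2.5.4, Cufflinks, Cuffdiff 2.2.1 and the build mm10 were used. The sources used here do not give the counting step, annotation release, strand setting or handling of reads that match several genes, and per the labels' protocols the kit was directional. Libraries held 60.8 to 100.5 M counts (1 M is 1000000). For 2 libraries against 2, the smallest two-sided p of an exact permutation test is 0.333, so genes were tested only by models over the whole table.

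Symbols, coordinates and exon lengths came from GENCODE M21 (GRCm38), which matched 22341 of 23006 identifiers. In R 4.3.3, edgeR 4.0.16 was run on counts with TMM scaling, filterByExpr over the 4 groups (16876 genes kept), and a robust quasi-likelihood fit (legacy = FALSE) with 1 mean per group. It had 4 residual degrees of freedom. A call means an adjusted p (Benjamini-Hochberg, over all genes of a comparison) under 0.05. Intervals are 95% intervals of the fit and SE is the log2 fold change over the root of the F statistic. DESeq2 1.42.0 was an alternative, beside other scalings, filters, each library left out and the other settings of the closing section. The scripts' tests were run on simulated data first.

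The genes and lists were chosen with earlier results of these data known. Genes were named by a rule: for each comparison up to 6 called genes in each direction with the smallest p, the most abundant gene of larger subfamilies, near-identical pairs, genes near the level minimum and called genes of the lists. Identity was taken from coding sequences in place of proteins, which were not used here. Other genes are named to spell out a count, and Hmox1 and Cyp2b10 after their values were seen. Promoters are from RefSeq. One item of the gene and motif lists is not reported here.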

Additional observations from a re-analysis of the deposited data

Results flagged for a closer look

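For 15 of the 46 genes the effect of SLIT2 differed between mice with and without APAP by the interaction test (edgeR adjusted p under 0.05, log2 difference of effects). This is 32.6% of them, where 28.8% of all genes were called, and 4 of the 15 (Cyp2c67, Cyp2c68, Cyp2c69 and Cyp2j5) passed whichever library was left out. Among the Cyp2c genes the difference was 7.64 for Cyp2c69, 5.79 for Cyp2c40, 3.80 for Cyp2c67, 3.66 for Cyp2c68, 3.38 for Cyp2c38, 2.67 for Cyp2c37 and 2.19 for Cyp2c50. It was 3.07 for the epoxygenase Cyp2j5 and 2.90 for the vitamin D hydroxylase Cyp2r1. The Cyp2a genes had 2.09 (Cyp2a5), 1.85 (Cyp2a22) and 1.74 (Cyp2a12). Cyp3a13 had 1.42 and Cyp4v3 1.26. Cyp2j9 had -1.04, its rise with SLIT2 being smaller in mice with APAP. The SLIT2 libraries, with 60.2 and 69.0% mitochondrial counts, enter each of these values. The part of that share was not tested beyond the alternative scaling, under which Cyp2a5, Cyp2a12, Cyp2a22, Cyp3a13 and Cyp4v3 no longer passed.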

How the results depend on the processing

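Counts of called genes moved by more than 1.5 times as follows, and the cause was not tested. DESeq2 called 6 in APAP against control (7.98% of all genes), 20 in SLIT2+APAP against APAP (15.4%) and 14 in SLIT2+APAP against control (6.32%). Fits of only the libraries compared called 0 in SLIT2+APAP against APAP (0.00645% of all genes) and 18 in SLIT2+APAP against control (27.4% of all genes). Without both SLIT2 libraries, 0 were called in SLIT2+APAP against control (0.0188% of all genes). Leaving out 1 library gave 0 to 10 in APAP against control, 23 to 34 in SLIT2 against control, 0 to 14 in SLIT2+APAP against APAP, 0 to 15 in SLIT2+APAP against control and 4 to 26 in the interaction. Control, SLIT2 and SLIT2+APAP share the replicate numbers 1 and 2. Same-numbered libraries showed no common deviation over all tested genes (correlations 0.075, -0.071 and -0.015). This cannot exclude that same-numbered libraries belong together, and the main fit did not pair them. A replicate block called 13 in SLIT2+APAP against control (15.2% of all genes). In SLIT2 against control it called 35 (67.4% of all genes), within 1.5 times of the main count.

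In SLIT2 against control, scaling by totals outside mitochondrial genes turned the sign of Cyp2j6 (1.33), Cyp3a25 (1.30), Cyp2j13 (1.19), Cyp2d22 (1.10), Cyp2a22 (1.08), Cyp4b1 (0.96), Cyp2c23 (0.21) and Cyp4v3 (0.18), the first 6 of which then passed. A filter of at least 10 CPM did so for Cyp2j6 (0.52). In APAP against control, Cyp4a31 lay between -1.72 (without APAP 4) and 0.89 (without APAP 3) as libraries were left out. No other value of a gene in any alternative run turned its sign and was called in either fit. DESeq2 size factors, the legacy fit, no count filter, GC offsets, a fit without mitochondrial genes and other level minimums kept each count within 1.5 times. With 2 libraries a group, a change that misses the threshold is not shown to be absent.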

Other observations

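Of the 46 genes, 7 differed by over 2-fold between the control libraries (Cyp2a4, Cyp2a5, Cyp2b9, Cyp2c40, Cyp2c69, Cyp4a10 and Cyp4a14). Of all genes, 9.1% did. Each of the 7 was higher in control 2, by 2.27-fold (Cyp2a5) to 5.59-fold (Cyp2b9). How many of all such genes were higher in control 2 was not counted. Cyp2a4 with Cyp2a5 and Cyp2c40 with Cyp2c69 are near copies, so the 7 are not separate cases. The circadian transcription factors Dbp and Tef, known as regulators of P450 genes, stood at 4.03 and 71.4 CPM and at 30.2 and 89.5 CPM in control 1 and 2. Dbp stood at 133 and 192 CPM in SLIT2, 20.3 and 37.1 CPM in APAP and 85.4 and 72.0 CPM in SLIT2+APAP. The labels give no time of day, and the part of this difference in the 7 genes was not tested.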
